A study of Mus musculus with 17 samples.

Results

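Cluster 4 is 1 of the 9 clusters into which the authors divided the single cells of mouse brain. It was taken as the deposited pair of columns that give its mean level of each gene, 1 column for each of 2 scRNA-seq libraries of a series of 17 samples. All 26624 genes with a usable name were read, and 6494 of them had a mean above 0.1 natural log units in at least 1 of both columns, which is what "detected" means below. The label of cluster 4 as T cell-like rests on 7 markers, Cd3e, Cd3g, Ccl5, Nkg7, Ctla4, Icos and Themis. All 7 were detected and were higher in cluster 4 than in any of the other 8 clusters, as were 19.3% of all detected genes. The markers were chosen with results of these same data known, so their levels describe the cluster and do not test the label. The study treats this cluster as dopaminergic.

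The mice were wild-type ICR mice, described in the study's methods as female and given as 8 weeks old at the lesion, and their samples carry the tissue label brain and the cell line label CNS. In the 6-OHDA-induced PD model, 10 µg/µl of the neurotoxin 6-hydroxydopamine was placed on 1 side into the substantia nigra, where the dopamine neurons of the midbrain lie. In the NDST3-treated PD model the same lesion was followed 5 days later by 2 µl of an AAV that carries NDST3, an enzyme that modifies heparan sulfate. Both groups therefore share the lesion, each is 1 library, and the sham scRNA-seq library was not analysed here. According to the methods, lesioned mice not given NDST3 received saline, so the vector and NDST3 cannot be told apart in this comparison. The tissue was dissociated with enzymes, myelin was removed on a Percoll gradient and red blood cells were lysed before the 10x Genomics 3′ libraries were made. RNA-seq of whole tissue came from 5 libraries, 2 of sham mice, 1 of the 6-OHDA-induced PD model and 2 of the NDST3-treated PD model.

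T cells recognise antigen through a receptor whose chains signal through the CD3 proteins, and the coreceptors CD4 and CD8 divide them into helper and cytotoxic lineages. Activation brings up costimulatory receptors such as ICOS and 4-1BB and brakes such as CTLA-4 and PD-1, and repeated stimulation keeps the brakes high. T cells are scarce in the healthy brain, enter it after injury, and can stay there as resident cells that lose the genes of recirculation.

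Every scRNA-seq value is a mean over the cells of a cluster of the natural log of 1 plus the UMI count scaled to 10000 per cell, so groups are compared by differences and not by folds. A difference is always the NDST3-treated PD model minus the 6-OHDA-induced PD model. With 1 library per group no scRNA-seq difference has a test or an error between mice, and the values describe these 2 libraries. Cell numbers, barcodes and depths do not come with the means, and cell shares, shared barcodes and doublets were not analysed here. The smallest mean above 0 in cluster 4 was 0.00367 in the 6-OHDA library and 0.000206 in the NDST3 library, and 13710 and 9002 genes were at 0. The libraries also differed in Y-linked RNA. Over the 9 clusters Ddx3y ran from 0 to 0.0014 in the 6-OHDA library and from 0.015 to 0.133 in the NDST3 library, and Xist was lower in the NDST3 library in 8 of 9. The exception was cluster 4, with Xist at 1.96 and 1.98. Its Ddx3y was at 0 and 0.0159. No single library can be left out of this comparison, and the part of the difference in sex-linked RNA in the results was not tested.

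The markers set cluster 4 apart in both libraries. Ccl5, a chemokine of effector lymphocytes, had a level of 2.56 in the 6-OHDA library and 3.02 in the NDST3 library. Icos went from 2.07 to 2.47, and Nkg7, a protein of cytotoxic granules, from 1.88 to 2.16. The CD3 chain genes Cd3g and Cd3e went from 1.85 to 2.67 and from 1.62 to 2.17. All 5 were higher in the NDST3 library, as were the other 2 markers. Themis, which tunes receptor signalling during T cell development, went from 1.05 to 1.73 and Ctla4 from 1.25 to 2.38.

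**Figure D1:**
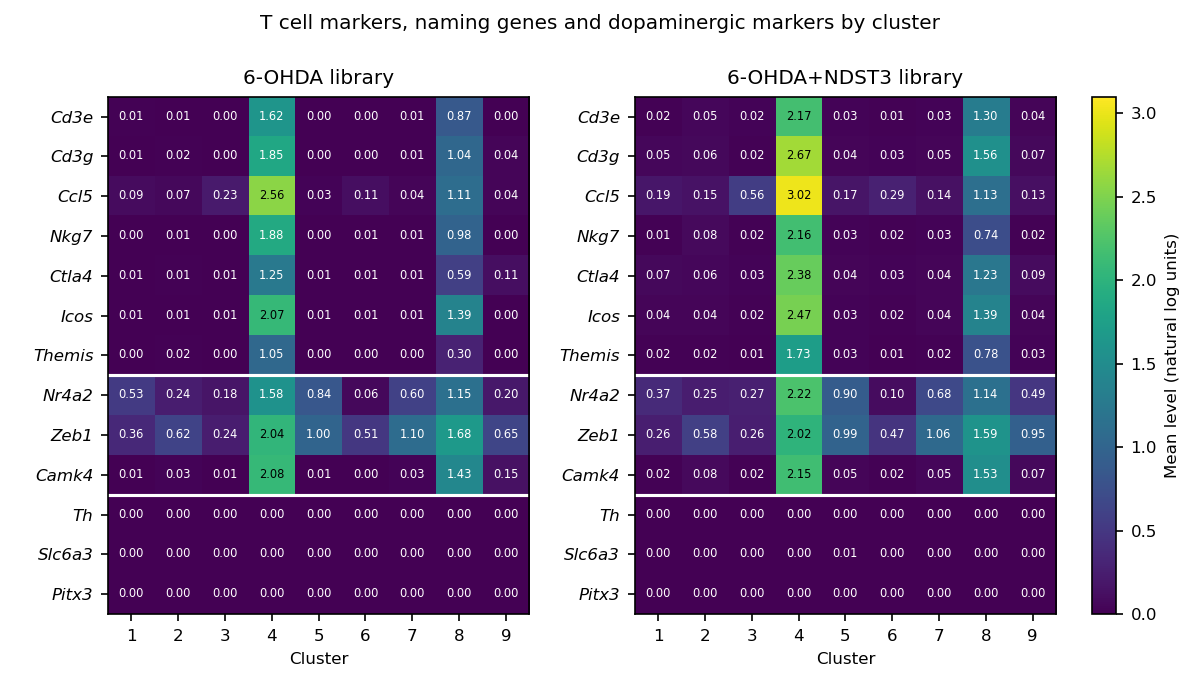
Mean level (natural log units, colour and printed value) of the 7 T cell markers, of Nr4a2, Zeb1 and Camk4, and of 3 dopaminergic markers in the 9 clusters, with 1 panel per library. The T cell markers are brightest in cluster 4 and next in cluster 8, and Th, Slc6a3 and Pitx3 are at 0 in cluster 4 in both libraries.

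The lead of cluster 4 was measured as its mean over both libraries minus that of the highest other cluster. The 15 genes with the largest lead are a description, since the clusters were made from these genes. Ccl5 led by 1.66 and Nkg7 by 1.16. Ms4a4b, a membrane protein of T cells, led by 0.983, Cd3g by 0.958, Ctla4 by 0.906 and Icos by 0.882. The others, in order, were AW112010, Themis, the phosphatase gene Ptpn22, Cd3e, the kinase gene Prkch, Atxn1, the adaptor gene Grap2, Cd8b1 and Cd3d, with leads from 0.861 to 0.774. For all 15, cluster 8 was the next highest. Of all detected genes, 19.3% were highest in cluster 4. Of the 20 genes of the receptor complex and its signalling, 19 were highest there.

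Cluster 8, the most similar by these genes, held the same markers at lower levels. Its level of Cd3g was 1.04 in the 6-OHDA library and 1.56 in the NDST3 library, and its level of Themis was 0.295 and 0.781. The median over the 7 markers was 1.85 and 2.38 in cluster 4, against 0.984 and 1.23 in cluster 8. In the 6 clusters other than 4, 8 and 9, Cd3g lay between 0.0026 and 0.0154 in the 6-OHDA library and between 0.0232 and 0.0626 in the NDST3 library. Of the 7 markers 6 were higher in the NDST3 library in all 6 of these clusters, and Themis in 5 of 6. The part of free RNA in the differences of cluster 4 was not tested.

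Dopaminergic and neuronal genes were near 0 in cluster 4. Of 16 dopaminergic markers, 9 had a mean of exactly 0 in both libraries. These 9 were Th, which encodes the rate-limiting enzyme of dopamine synthesis, the dopamine transporter gene Slc6a3, the transcription factor genes En1, En2, Foxa1, Foxa2, Lmx1a and Pitx3, and the receptor gene Drd2. Nr4a2 was the only one of the 16 that was detected. Slc18a2, the vesicular monoamine transporter gene, stood at 0.018 and 0.002. Of 12 pan-neuronal markers none was detected, and the highest were Stmn2 at 0.0086 in the 6-OHDA library and Map2 at 0.010 in the NDST3 library. The precursor genes Sox2, Pax6, Dcx and Sox11 were at 0 in both libraries. Of all 8 precursor markers 5 were at 0 in both, and 1, Eomes, was detected, at 0.263 and 0.051. Eomes is named again below with the cytotoxic genes of lymphocytes. Of the 8, 2 had their highest mean level in cluster 4.

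Nr4a2, Zeb1 and Camk4 are the genes by which the study names the cluster. Nr4a2, which encodes Nurr1, is a nuclear receptor of dopamine neurons and also an immediate early gene of activated T cells. Its level in cluster 4 was 1.58 in the 6-OHDA library and 2.22 in the NDST3 library, a difference of 0.644. In the other 8 clusters its difference ran from -0.157 in cluster 1 to 0.293 in cluster 9, and in cluster 8 its levels were 1.15 and 1.14. Zeb1, a transcription factor of many tissues, stood at 2.04 and 2.02, and Camk4, a calcium-dependent kinase of T cells and neurons, at 2.08 and 2.15. Camk4 was detected outside cluster 4 only in cluster 8, at 1.43 and 1.53, and in cluster 9, at 0.145 and 0.070. The relatives of Nr4a2 differed less in cluster 4, Nr4a1 from 0.902 to 0.806 and Nr4a3 from 1.53 to 1.61.

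Markers of other cell types were mostly low in cluster 4. The highest was Apoe, a lipoprotein of glia and macrophages, at 2.75 and 2.30, and these were its lowest levels among the 9 clusters in both libraries. Of 10 microglia markers 3 were detected, while P2ry12, which marks resting microglia, was at 0.026 and 0.028. Lyz2, a myeloid gene, stood at 0.767 and 0.490, and the haemoglobin gene Hbb-bs at 0.626 and 0.343. The summed level over the 8 macrophage markers was 4.26 and 3.83, over the 10 microglia markers 1.51 and 1.39, over the 9 B cell markers 0.246 and 0.408 and over the 5 erythrocyte genes 1.06 and 0.623. Of 7 endothelial markers 4 were detected, with a highest level of 0.580 in the 6-OHDA library and 0.348 in the NDST3 library. Of 7 oligodendrocyte markers 2 were detected, with highest levels of 0.621 and 0.521. None of the 7 neutrophil markers or 8 astrocyte markers was detected. The part of these cell types in the differences below was not tested.

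In cluster 4 the 2 libraries had 33 of 6494 detected genes apart by 0.5 natural log units or more. With NDST3, 21 genes stood higher, 0.323% of those detected, and 12 stood lower, 0.185%. The median difference of all detected genes was 0.0056, with an SD over genes of 0.107. Over their own detected genes, this SD was 0.128 in cluster 9 and from 0.040 to 0.078 in the remaining clusters. Genes just inside the limit were Stat3 at 0.524 and Satb1 at -0.516, and those just outside were Airn at 0.491 and Xcl1, a chemokine gene of lymphocytes, at -0.498.

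**Figure D2:**
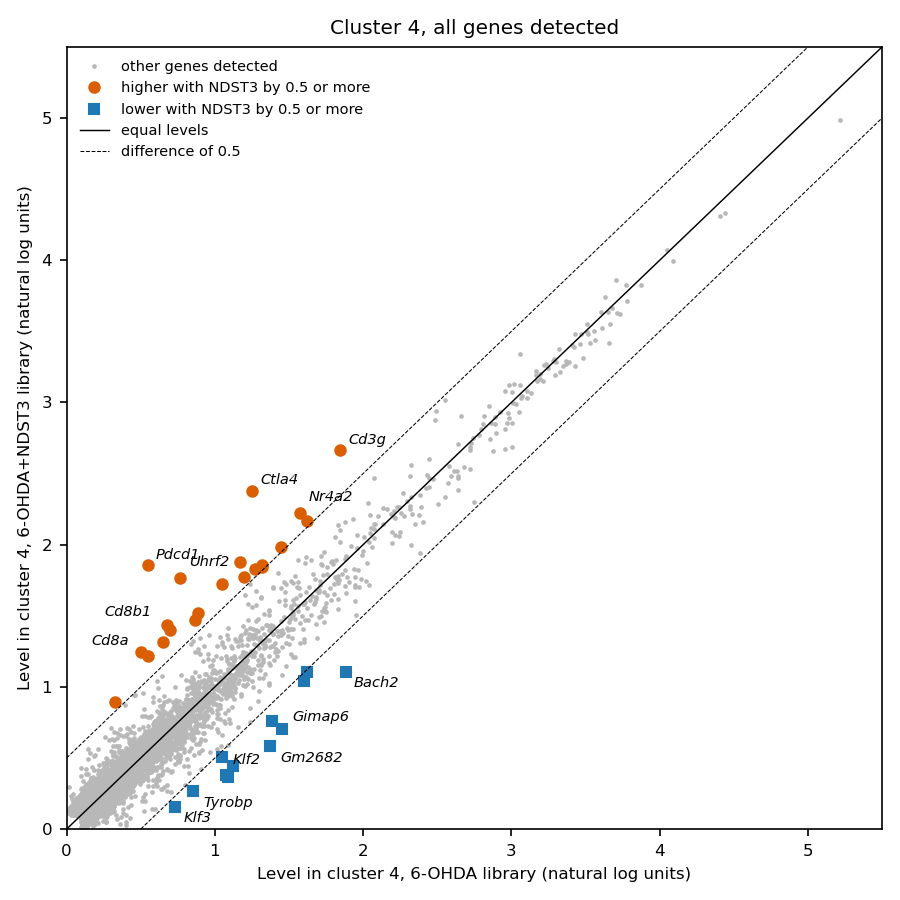
Level of every detected gene in cluster 4 in the 6-OHDA library (x axis) and the NDST3 library (y axis), both in natural log units, with 1 point per gene. The 21 higher genes (circles) and 12 lower genes (squares) lie outside the dashed lines that mark a difference of 0.5, and Pdcd1 lies farthest above.

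The checkpoint receptor genes Pdcd1 and Ctla4 had the largest differences. Pdcd1, which encodes PD-1, had a level of 0.546 in the 6-OHDA library and 1.86 in the NDST3 library, a difference of 1.31. Ctla4 differed by 1.13. Both proteins restrain T cells once they are activated. Tnfrsf9, which encodes the costimulatory receptor 4-1BB, went from 0.551 to 1.21, and Tox, a transcription factor of chronically stimulated T cells, from 1.27 to 1.83.

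The receptor and the CD8 coreceptor also stood higher. Cd8b1 went from 0.678 to 1.44 and Cd8a from 0.504 to 1.25. The constant chain gene Trac went from 1.17 to 1.88. Differences of these 3 genes ran from 0.710 to 0.760, and those of Cd3g, Themis and Cd3e were 0.821, 0.676 and 0.551. Cd4 stood at 0.257 and 0.279, a difference of 0.022.

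The remaining higher genes have other roles. Uhrf2, a ubiquitin ligase that binds modified DNA, went from 0.768 to 1.76. Rbpj, the DNA-binding partner of Notch, went from 0.695 to 1.40 and Runx2 from 0.650 to 1.32. Rbm3, a cold-inducible RNA-binding protein, went from 0.887 to 1.52, and it was higher in all 8 other clusters too, by 0.102 to 0.481, so that less their median its difference was 0.396. S100a4 and Cxcr6, a chemokine receptor of tissue-resident T cells, went from 0.867 to 1.47 and from 1.20 to 1.77. Rgs16, Ikzf2, Cmip and Stat3 made up the rest, with differences from 0.524 to 0.566.

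The promoters of 4 of these genes are shown because the genes stood higher together. They are Pdcd1 (chr1:94052504-94052803, minus strand), Ctla4 (chr1:60908775-60909074, plus strand), Cd3g (chr9:44980382-44980681, minus strand) and Cd3e (chr9:45009562-45009861, minus strand), each from 250 bases before to 50 bases after the gene's start, from RefSeq on GRCm38.p6. Capitals mark CAGGTG, an E-box that Zeb1 can bind, and TGGAAA, the core letters of NFAT sites, on either strand, as these letters or their reverse complements.
Pdcd1: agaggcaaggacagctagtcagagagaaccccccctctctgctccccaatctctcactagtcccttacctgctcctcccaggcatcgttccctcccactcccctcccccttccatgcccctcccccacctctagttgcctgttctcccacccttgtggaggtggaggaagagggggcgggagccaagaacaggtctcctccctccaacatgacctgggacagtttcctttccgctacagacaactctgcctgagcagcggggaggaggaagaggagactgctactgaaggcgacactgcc
Ctla4: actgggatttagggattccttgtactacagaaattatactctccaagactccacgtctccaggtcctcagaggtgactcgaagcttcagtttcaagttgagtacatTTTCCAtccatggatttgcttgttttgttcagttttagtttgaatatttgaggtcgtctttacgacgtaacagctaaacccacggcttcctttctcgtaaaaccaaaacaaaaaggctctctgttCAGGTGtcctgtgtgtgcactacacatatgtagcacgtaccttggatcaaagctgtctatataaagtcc
Cd3g: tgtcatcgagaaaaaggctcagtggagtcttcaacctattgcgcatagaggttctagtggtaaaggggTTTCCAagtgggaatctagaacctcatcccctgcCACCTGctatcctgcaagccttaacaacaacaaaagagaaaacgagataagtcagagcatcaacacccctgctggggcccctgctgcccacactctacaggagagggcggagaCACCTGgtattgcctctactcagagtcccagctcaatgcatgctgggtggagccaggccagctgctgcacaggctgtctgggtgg
Cd3e: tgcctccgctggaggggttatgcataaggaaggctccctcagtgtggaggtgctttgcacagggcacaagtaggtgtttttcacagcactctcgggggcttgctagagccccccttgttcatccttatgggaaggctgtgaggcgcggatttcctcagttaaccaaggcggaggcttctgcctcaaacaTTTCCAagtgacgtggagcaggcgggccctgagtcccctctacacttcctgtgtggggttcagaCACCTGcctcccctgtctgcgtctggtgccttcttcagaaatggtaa
Promoters matched 25 of the 33 genes, 16 of the 21 higher and 9 of the 12 lower. These genes have 35 promoters in the table. CAGGTG was in 11 of the 35, and in 20.2% of all 32851 promoters in the table. TGGAAA was in 8 of the 35, and in 21.4% of all promoters. The Pdcd1 window held neither. AAAGGTCA, the letters that Nr4a receptors bind as monomers, was in 0 of the 35 and in 1.51% of all promoters. The 2 shorter motifs share no position in the windows shown.

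Several of the 12 lower genes encode transcription factors or chromatin proteins of lymphocytes. Bach2, a repressor that holds T cells out of effector states, had a level of 1.88 in the 6-OHDA library and 1.10 in the NDST3 library. Klf2, a transcription factor that maintains recirculation, went from 1.05 to 0.505, and Klf3 from 0.731 to 0.154. Satb1, a chromatin organiser of T cells, went from 1.62 to 1.11 and Runx1 from 1.60 to 1.04.

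The other lower genes included signalling and membrane proteins. Gm2682, a predicted gene, had the lowest difference, from 1.37 to 0.586. Gimap6, a GTPase of lymphocytes, went from 1.45 to 0.703, and Txk, a Tec family kinase of T and NK cells, from 1.08 to 0.382. Sidt1, Mpp7 and Atp11b had differences of -0.719, -0.684 and -0.625. Tyrobp, the adaptor of NK and myeloid receptors, went from 0.850 to 0.271, and it was lower in all 8 other clusters too, with differences from -0.412 to -0.096, so that less their median its difference was -0.352.

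Against the other clusters, the 33 genes stood out in cluster 4, as genes chosen for the size of this difference must tend to. All 21 higher genes had a larger difference in cluster 4 than in each of the other 8 clusters, and all 12 lower genes had a lower one. Of all detected genes, 19.5% were above and 17% below the range of the other 8. In cluster 8, 18 of the 21 were also higher, with a median difference of 0.222, and 10 of the 12 were also lower, with a median of -0.125. Ctla4 and Cd3g were the 2 that passed 0.5 there. Cxcr6 went the other way in cluster 8, from 1.03 to 0.724. Cluster 9 had 29 genes higher and 12 lower by the same rule, and the other 7 clusters had 0 to 9 higher and 0 to 3 lower.

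**Figure D3:**
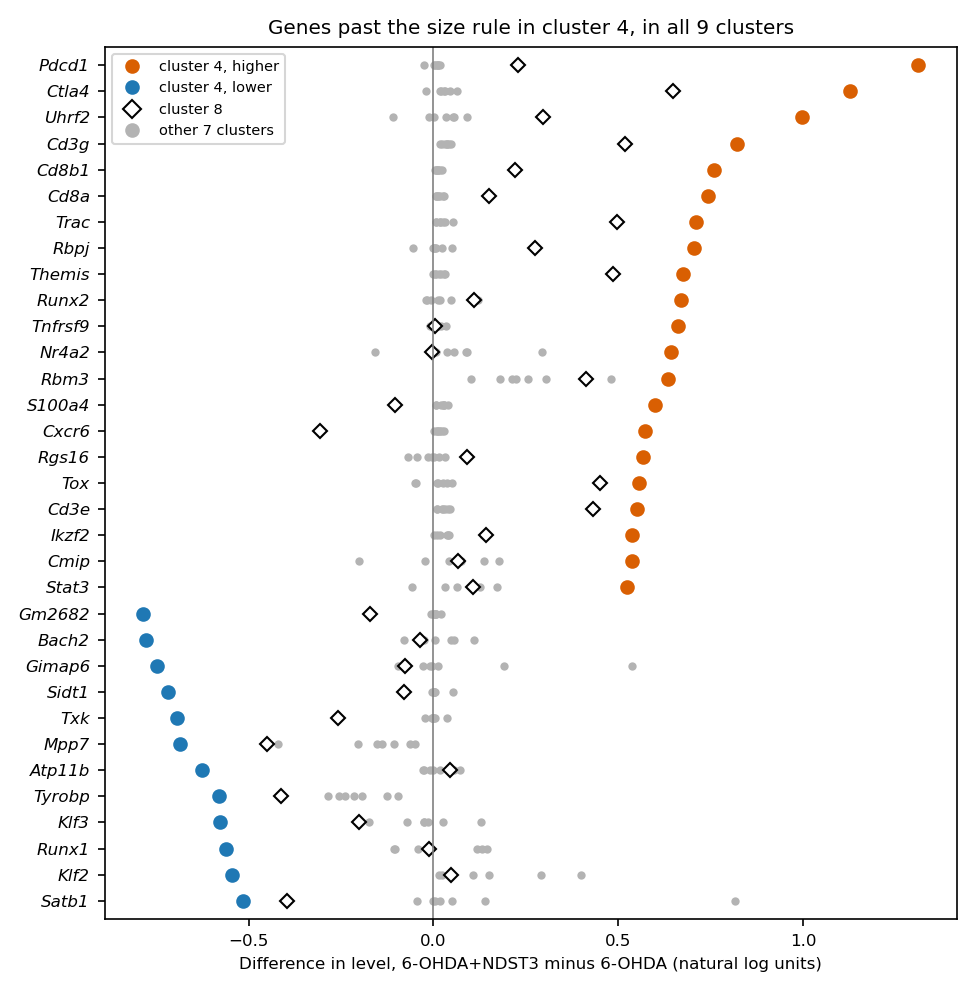
Difference in level (x axis, NDST3-treated minus 6-OHDA-induced PD model, natural log units) of the 33 genes past 0.5 in cluster 4, with 1 row per gene and 1 point per cluster. Cluster 4 is outermost in every row, and cluster 8 (diamonds) lies on the same side of 0 as cluster 4 for 18 of the 21 higher and 10 of the 12 lower genes.

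Receptors that restrain or costimulate T cells stood higher as a group. All 14 were detected, 12 were higher and 2 lower in the NDST3 library, against 53% of all detected genes that were higher. Their median difference was 0.246. Lag3, another checkpoint receptor, went from 0.159 to 0.533, Tigit from 0.130 to 0.426 and Havcr2, which encodes TIM-3, from 0.059 to 0.194. The costimulatory receptor gene Tnfrsf4 went from 0.285 to 0.628. Cd160 and Cd244a were the 2 lower genes, with differences of -0.066 and -0.071. These 2 passed 0.1 only in the 6-OHDA library, and Havcr2 only in the NDST3 library. The minimum level thus fixed part of the count. The 12 and 2 cannot be weighed against the 53% of all detected genes that were higher. In cluster 8 the median level of the list was 0.195 and 0.343, and in cluster 4 it was 0.260 and 0.499.

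The receptor complex followed the same side with exceptions. Of its 20 genes 16 were higher, with a median difference of 0.197. Lck, the kinase that starts receptor signalling, went from 1.54 to 1.78, and Cd6 from 0.963 to 1.36. The 4 lower genes were Lat, Skap1, Cd28 and Ptprc, with Cd28 from 1.60 to 1.40 and Ptprc, the common leukocyte phosphatase, from 2.64 to 2.38. Lat stood at 1.01 in both libraries.

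Cytotoxic genes were mixed. Of 15 detected, 10 were higher and 5 lower, with a median of 0.106. Gzmb, a killing protease, went from 0.360 to 0.664, and Ifng, the main T cell interferon, from 0.424 to 0.612. Prf1, which encodes perforin, stood at 0.269 and 0.376, while Gzmk and Gzma stood lower, at 0.523 and 0.429 and at 0.252 and 0.223. The NK receptor genes Klrc1 and Klrd1 went from 0.640 to 1.08 and from 0.617 to 0.996, and both are carried by CD8 T cells as well. Tbx21, which drives these programmes, stood at 0.839 and 0.804, and Eomes at 0.263 and 0.051.

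The list of NK genes stood lower. All 8 detected genes of its 11 were lower in the NDST3 library, against 47% of all detected genes, with a median difference of -0.173. Genes above 0.1 only in the 6-OHDA library, such as Ncr1, could only be counted as lower. The minimum level thus fixed part of this count, and it cannot be weighed against the 47%. The median level of the 11 genes was 0.179 in the 6-OHDA library and 0.045 in the NDST3 library. Ncr1, which defines NK cells and related innate lymphocytes, went from 0.398 to 0.049, and Fcer1g from 0.795 to 0.312. The summed level over the 11 genes was 3.25 and 1.14, and 1.60 and 0.554 without Tyrobp and Fcer1g, which myeloid cells share. Tyrobp was lower in all 8 other clusters and Fcer1g in 7 of them. In cluster 8 Ncr1 went from 0.477 to 0.107. The gamma-delta and innate-like list had 4 of 5 detected genes lower, with Zbtb16 from 0.431 to 0.076 and Trdc from 0.212 to 0.042, while Tcrg-C2 went from 0.141 to 0.495. Zbtb16 and Trdc also passed 0.1 only in the 6-OHDA library. These values were measured beside the higher Cd8a, Cd8b1 and Trac, and a change in the makeup of the cluster cannot be told apart from a change per cell.

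Recirculation genes stood lower, and most residency genes stood higher. Of 7 detected genes of naive and recirculating T cells 6 were lower, with a median of -0.258, beside 47% of all detected genes. All 6 were below the range of the other 8 clusters, as were 17% of all detected genes. Lef1 went from 0.702 to 0.258, Tcf7 from 0.574 to 0.261 and S1pr1, the receptor for exit into blood, from 0.412 to 0.154. Ccr7 was the exception, at 0.163 and 0.262. Klf2 was the only one of them past 0.5. Of 9 detected residency genes 7 were higher (median 0.187), with Itgae, the CD103 chain, from 0.096 to 0.430, and Bhlhe40 from 1.28 to 1.67. Itgae passed 0.1 only in the NDST3 library and could only be counted as higher. The 7 of 9 thus cannot be weighed against the 53% of all detected genes that were higher. Cd69, the early activation and retention gene, was lower, from 1.10 to 0.745, as was Xcl1, from 1.09 to 0.590.

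**Figure D4:**
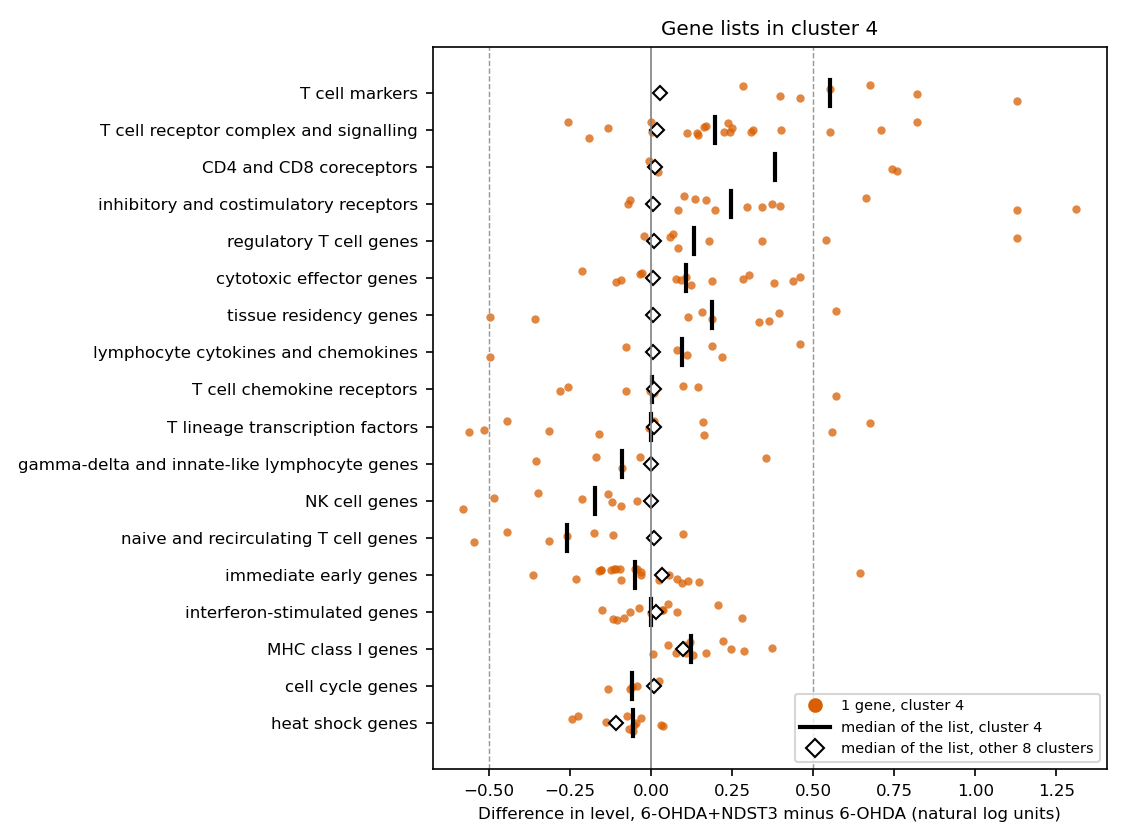
Difference in level (x axis, NDST3-treated minus 6-OHDA-induced PD model, natural log units) of the detected genes of 18 lists in cluster 4, with 1 dot per gene, a bar at the median and a diamond at the median over the other 8 clusters. The receptor lists lie to the right of 0, and the NK and the naive and recirculating lists to the left.

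Of 8 detected regulatory T cell genes 7 were higher and 1 lower, with a median of 0.132. Foxp3, the lower one and their defining factor, stood at 0.110 and 0.090, and Il2ra at 0.248 and 0.308. Ikzf2, which encodes Helios, went from 1.32 to 1.86, and it belongs to other T cells too. Of the chemokine receptors 4 of 8 detected were higher and 4 lower. Cxcr4 went from 0.582 to 0.300 and Ccr2 from 0.634 to 0.379, while Ccr8 went from 0.102 to 0.248.

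The 21 detected immediate early genes had a median of -0.048, with 7 higher and 14 lower, so that Nr4a2 was the only one of them past 0.5. Fos stood at 0.567 and 0.452, Junb at 3.02 and 3.13 and Fosb at 0.674 and 0.309. Of the 13 detected interferon-stimulated genes 7 were higher and 6 lower. All 12 MHC class I genes were higher, with a median of 0.124 beside 0.0056 over all genes and a median of 0.098 for the same genes in the other 8 clusters. The dividing-cell gene Mki67 was at 0.018 and 0.044 and Top2a at 0.248 and 0.206. Of 15 repair genes of broken DNA 8 were detected, the highest being Rad50 at 0.242 and 0.212, and none passed 0.5. The 11 detected heat shock genes, which also respond to dissociation, had a median of -0.055.

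Whole-tissue RNA-seq was read for the same genes. The 5 libraries held 51003699 to 70533326 counts, and 19300 of 20328 listed genes were tested by the quasi-likelihood method of edgeR, with p-values adjusted after Benjamini and Hochberg. The table lists only genes with a count above 0 in all 5 libraries, and of the 20 receptor complex genes 15 are listed, without Cd3e, Cd3g and Cd3d. Nkg7, Ctla4, Icos and Cd8a are likewise not listed. In these bulk samples fewer cells of a type and less RNA per cell cannot be told apart. Nothing in the labels says that libraries came from separate mice, so p-values measure the spread between these libraries, which may be technical, and the fit assumes that the lone 6-OHDA library varies as much as the others. All 5 libraries held 3566 to 5079 counts of the Y-linked gene Ddx3y, although the methods describe the mice as female. In the 6-OHDA scRNA-seq library Ddx3y reached at most 0.0014 in any cluster. Bulk and scRNA-seq values may thus come from mice of different sex, and the part of this in their comparison was not tested.

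Between the 6-OHDA-induced PD model and sham, the receptor complex list passed the test about as often as other genes. Some other T cell lists passed it more often, and others did not. Of the 15 receptor complex genes 3 rose and 1 fell, beside 18.8% and 17.1% of all genes tested (35.8% in either direction). Of the inhibitory and costimulatory receptors 7 of 9 rose, with a median log2 fold change of 3.26, as did 5 of 9 cytotoxic genes, 4 of 6 chemokine receptors and 4 of 6 lymphocyte cytokines. Only 1 of 6 regulatory T cell genes and 1 of 7 gamma-delta and innate-like genes rose, and 0 of 1 coreceptor genes. Ptprc had 452 and 309 counts in sham, 4137 after 6-OHDA and 1581 and 2494 with NDST3 added. Its rise over sham was 3.60 as a log2 fold change (SE 0.45, adjusted p = 0.00869 from edgeR). Lcp2, an adaptor of many leukocytes, rose by 2.83 and Cd28 by 3.84 (adjusted p = 0.00823 and 0.0435 from edgeR). Thy1, which neurons carry in large amounts, fell by 1.04 on the log2 scale (adjusted p = 0.0106 from edgeR). The median of the 15 was 1.19, beside -0.002 over all genes. Without sham replicate 1 or without sham replicate 2, edgeR called 0 of the 15 and 0 genes in all, so the calls of single genes in this comparison rest on both.

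Ccl5, Pdcd1 and Themis are among the genes of cluster 4 that the bulk table lists. Ccl5 had 14 and 16 counts in sham, 138 after 6-OHDA and 51 and 79 with NDST3 added. It rose by 3.40 on the log2 scale over sham (SE 0.44, adjusted p = 0.00882 from edgeR). Between the lesioned groups its log2 fold change was -1.29 (adjusted p = 0.0894 from edgeR), which did not pass. Pdcd1 had 42 and 35 counts in sham, 409 after 6-OHDA and 247 and 355 with NDST3 added. It rose by 3.59 on the log2 scale against sham (SE 0.40, adjusted p = 0.00823 from edgeR), and its log2 fold change between the lesioned groups was -0.65 (adjusted p = 0.273 from edgeR). Themis had 5 and 2, 13, and 4 and 4 counts in the same order and passed no test. The higher Pdcd1 and Ccl5 of cluster 4 in the NDST3 library thus stood beside bulk values with the opposite sign that did not pass. Of the 9 inhibitory and costimulatory receptors tested between the lesioned groups, 0 had a log2 fold change above 0 and edgeR called none (3 at an unadjusted p under 0.05), with a median of -0.89, where 12 of 14 were higher in cluster 4.

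Between the NDST3-treated and the 6-OHDA-induced PD model, 1 of the 15 receptor genes rose and 1 fell, beside 9.06% and 6.59% of all genes (15.6% in either direction). Thy1 rose by 0.85 on the log2 scale and Lcp2 fell by 1.38 (adjusted p = 0.0374 and 0.0373 from edgeR). Neither passed without sham replicate 1, without sham replicate 2 or without NDST3-treated replicate 1, where 0, 0 and 1 genes in all were called. Klf2, lower in cluster 4, had 255 and 331 counts in sham, 592 after 6-OHDA and 279 and 312 with NDST3 added, and it fell by 1.21 on the log2 scale between the lesioned groups (adjusted p = 0.035 from edgeR). This call was lost with the replicate block, with only the libraries of both groups, without sham replicate 1 and without sham replicate 2. The level of Klf2 was highest in cluster 7, at 2.31 and 2.33, and 3 of 7 endothelial markers fell in the same comparison. Nr4a2 had 865 and 1294, 165, and 213 and 419 counts in that order. It fell by 2.48 on the log2 scale in the 6-OHDA library against sham (adjusted p = 0.017 from edgeR), and its difference between the lesioned groups was 0.73 (adjusted p = 0.275 from edgeR). Between the NDST3-treated PD model and sham, edgeR called 0 of the 15 and 0% of all genes, with 2 of the 15 and 2744 of 19300 genes at an unadjusted p under 0.05, while DESeq2 called 2 of the 15 and 1048 genes in all.

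**Figure D5:**
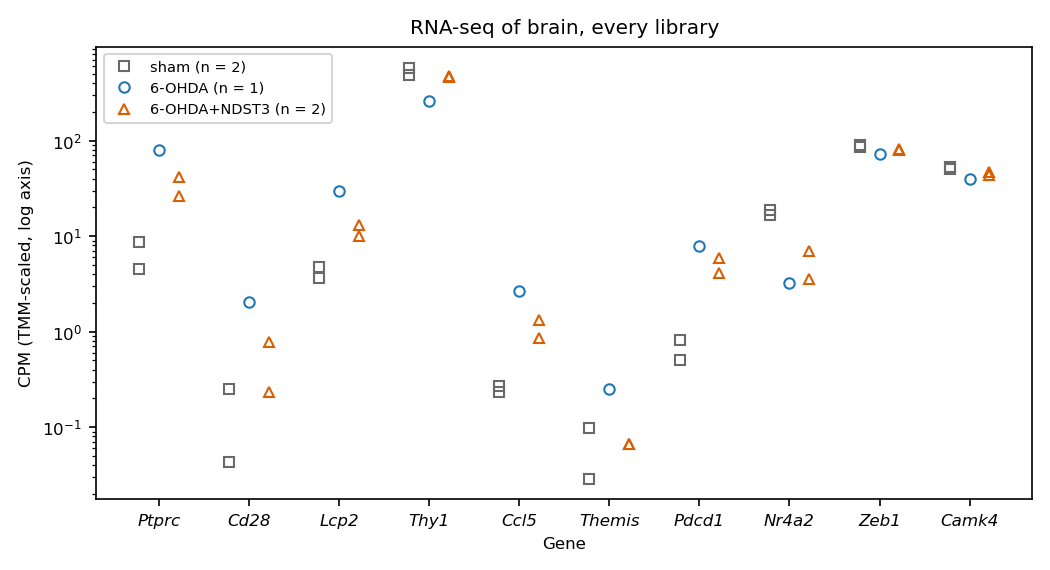
RNA-seq level (CPM scaled by TMM factors, log axis) of 10 genes in each library, with sham (squares, n = 2), the 6-OHDA-induced PD model (circles, n = 1) and the NDST3-treated PD model (triangles, n = 2). Ptprc, Lcp2, Ccl5 and Pdcd1 are highest in the 6-OHDA library, and Thy1 and Nr4a2 are lowest there.

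Markers of other cells moved with these bulk results. Of 10 microglia markers 9 rose in the 6-OHDA library against sham, with a median log2 fold change of 2.60, and of 8 macrophage markers 7 rose, with a median of 3.66. Of 16 dopaminergic markers 15 fell, with a median of -2.93. The shares over all genes tested were 18.8% higher and 17.1% lower. Between the NDST3-treated and the 6-OHDA-induced PD model, 8 of 9 mural and fibroblast markers fell (median -2.44). So did 5 of 5 erythrocyte genes (median -2.43), 3 of 7 endothelial markers (median -0.87) and 1 of 8 macrophage markers (median -1.42). The share of all genes tested that fell was 6.59%. None of the 10 microglia markers passed, with a median of -1.02 and 8 at an unadjusted p under 0.05. The part of these cell types in the bulk values of the T cell genes was not tested.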

How the data were processed

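The scRNA-seq values are means that the authors deposited per gene, cluster and library on a natural log scale. The header calls them mean counts, but the methods and the values fit the natural log of 1 plus UMI counts scaled to 10000 per cell. The reads were aligned to mm10 with Cell Ranger and processed in Seurat, cells with fewer than 200 or more than 8000 genes or over 10% mitochondrial reads were left out, and no other step against doublets is described. Of 26650 rows, 26 whose gene name had become a date were left out. The RNA-seq read counts were deposited by the authors after Trimmomatic, HISAT2 on mm10 and StringTie, and the deposited FPKM and TPM values were not used here. CUT&RUN and ATAC-seq tables were not used.

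Genes were counted as different in cluster 4 at 0.5 natural log units or more with a mean above 0.1 in either library. A gene above 0.1 in only 1 library could only be counted as higher there. Counts of higher and lower genes in a list can therefore be partly fixed by this minimum. For the counts, edgeR 4.0.16 was run under R 4.3.3 (TMM, filterByExpr, quasi-likelihood test, all 5 libraries in 1 fit, adjusted p under 0.05), with DESeq2 1.42.0 as an alternative, after the scripts were tested on simulated data. SEs were obtained from log2 fold changes and F statistics, as the change over the root of F. Python 3.11.15 with pandas 2.3.3, numpy 2.4.6 and matplotlib 3.10.9 was used for the rest. Promoters came from RefSeq on GRCm38.p6.

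Named genes are the 7 markers, Nr4a2, Zeb1 and Camk4, the 15 genes with the largest lead, up to 15 largest differences in each direction and examples from 34 gene lists. Cluster 4, its members and the lists were chosen with earlier results of these data known. Replicate numbers come from the titles. The deviations of same-numbered libraries correlated at -0.432 over 19300 genes, with 2 pairs only, so they were not treated as paired. Results for some genes of the lists are not reported here.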

Additional observations from a re-analysis of the deposited data

Results flagged for a closer look

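Klf2 was flagged because it was lower with NDST3 in cluster 4 and higher in each of the other 8 clusters. Its difference in cluster 4 was -0.546 natural log units (from 1.05 to 0.505), and in the other 8 clusters it ran from 0.015 in cluster 6 to 0.401 in cluster 9. In cluster 8 its levels were 1.05 and 1.09. With 1 library per group this contrast between clusters was not tested.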

How the results depend on the processing

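With a size rule of 0.25 natural log units, 108 genes were higher and 120 lower in cluster 4, and with 1 on the log2 scale 8 were higher and 5 lower, so the excess of higher genes depends on the limit. The counts stayed within 1.5 times of 21 and 12 without a minimum level, with a minimum of 0.25, after centring and after scaling to an equal sum, where no named difference past 0.5 changed sign. Less the median difference over the other 8 clusters, Rbm3 went from 0.636 to 0.396 and Tyrobp from -0.580 to -0.352, both under the 0.5 limit. Of the receptor complex list, 19 genes were highest in cluster 4, as were all 7 markers in each library alone. In RNA-seq, the count of called receptor complex genes ranged from 0 to 4 for 6-OHDA against sham, from 0 to 2 for NDST3 against 6-OHDA and stayed at 0 for NDST3 against sham when 1 replicate was left out. With the replicate block it was 2, 0 and 0, and 1796 and 0 genes in all were called in the first pair of comparisons, against 6916 and 3019. With the pairing crossed, chosen after seeing the data, it was 5, 4 and 2, and 7444, 4795 and 1194 genes in all. With only the libraries of both groups, NDST3 against 6-OHDA gave 0 of the list and 0 genes in all. For NDST3 against sham, DESeq2 and a 2-fold change with a raw p under 0.05 each gave 2, and DESeq2 called 5262 genes for NDST3 against 6-OHDA. With 1 replicate left out, the log2 fold change of Themis for NDST3 against sham, 0.17, ranged from -0.52 without sham replicate 2 to 1.16 without sham replicate 1. The causes were not tested. Cell numbers per cluster are not known, which limits every mean.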

Other observations

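Families below were chosen after their values were seen. All 8 detected Gimap genes, GTPases that support lymphocyte survival, were lower with NDST3 in cluster 4, with a median difference of -0.295 natural log units. Each lay below its range in the other 8 clusters. Of all detected genes 47% were lower and 17% lay below that range. Gimap7 went from 0.677 to 0.271, Gimap4 from 1.04 to 0.583 and Gimap3 from 1.07 to 0.746. The same genes had a median of 0.003 in the other clusters.

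Of 13 detected killer cell lectin-like receptor genes 10 were lower and 3 higher. The higher 3 were Klrc1, Klrd1 and Klrc2, which encode NKG2 and CD94 chains, with Klrc2 from 0.429 to 0.609. Klrb1b went from 0.404 to 0.030 and Klra1 from 0.252 to 0.090. Among 12 detected integrin chains, Itgav went from 0.465 to 0.945 and Itgb7, the partner of CD103, from 0.906 to 0.424. Of 15 interleukin receptor genes 8 were higher and 7 lower, with Il21r from 1.24 to 1.73 and Il12rb2 from 0.900 to 0.610. The 80 detected ribosomal protein genes had a median of -0.033, the 13 mitochondrially encoded genes -0.038 and the 13 glycolysis genes 0.004.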
